A study of Nicotiana tabacum with 6 samples.

Results

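The response to aluminium was followed in the tobacco transcripts that the array ties to sequence records whose identifier is AF, AY or DQ followed by 6 digits. Membership was set by that form of the identifier and not by the values, but earlier results of these data were known when the rule was chosen. There were 389 such records, read by 511 probes, out of 39531 sequence identifiers and 43759 probes on the array. AF gave 231 probes for 178 records, AY 157 probes for 111 records and DQ 123 probes for 100 records. The cells were suspension-cultured wild-type tobacco cells (Nicotiana tabacum) of the line SL, taken in log phase and kept for 18 h in a solution of 3 mM calcium chloride, 3% sucrose and 20 mM MES at pH 5.0, at 10 mg fresh weight per mL. The 3 aluminium samples received 100 µM aluminium chloride and the 3 control samples none, with the same medium otherwise. Each sample was labelled with Cy3 and put on a single-colour array of its own. No label says that the replicates were separate cultures, so p-values measure only how far these samples spread, and part of that spread may be technical.

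In acid media aluminium is present in a soluble ionic form that binds to the cell wall and plasma membrane of plant cells, stops their growth and is accompanied by callose deposition and oxidative stress. The prefixes AF, AY and DQ were issued one after the other by a public nucleotide database to sequences sent in directly by laboratories, as opposed to bulk runs of expressed sequence tags. Numbers are given out in order of receipt, so records with neighbouring numbers often come from one submission. The files pair each probe with a record identifier and give no gene name. Searched as they stand, 0 of the 389 identifiers were found among the names and identifiers of RefSeq tobacco genes. Those identifiers are of another kind, so this does not show that the transcripts lack such genes. The transcripts are therefore called by record and probe, and no function is assigned to them. Tobacco is an allotetraploid, and a probe can take up near-identical transcripts of both parental genomes.

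Levels are log2 processed signals minus the 75th percentile of the tobacco probes on the same array, so 0 is the 75th percentile, and they compare arrays for 1 probe but not probes with each other. The 75th-percentile signal was between 1180 and 3224, lowest on both arrays of replicate 3. The aluminium and control arrays of a replicate number sat on 1 slide, and that of replicate 3 was scanned on a different day from the rest. Control was in position 1 of every slide, so treatment and position on the slide cannot be told apart. No AF, AY or DQ spot was saturated or marked as an outlier, and each of these probes had 1 spot. The extraction marked 423 to 446 of the 511 probes as well above background on the aluminium arrays, against 398 to 442 on the control arrays. With 3 arrays a group, the number of arrays limits the precision.

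Testing was limited to probes marked as above background throughout the aluminium group, the control group or both. This held for 421 of the 511 probes (82.4%), against 66.0% of the whole array. By prefix it held for 186 AF probes (80.5%), 141 AY probes (89.8%) and 94 DQ probes (76.4%). Among the others, 50 were above background on no array and 40 on some arrays without meeting the rule. Of the 421, 392 were above background on all 6 arrays, while 29 passed although at least 1 array was dim, and 19 of these 29 were called. Each of the 29 entered the test through 1 group alone, so these calls support nothing further. The share called among such probes of the whole array was not counted.

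The AF, AY and DQ transcripts responded to aluminium in both directions. Of the 421 tested probes, 252 differed at an adjusted p under 0.05, 122 higher and 130 lower in aluminium cells (limma, two-sided, Benjamini-Hochberg over the whole array). This is 59.9% of them, against 42.5% of the 28861 probes tested on the array. The 122 higher are 29.0% and the 130 lower 30.9%, against 22.4% and 20.2% of the array. At least 2-fold changes were called for 122 probes, 54 higher and 68 lower, which is 29.0% against 16.4% of the array. By direction, 12.8% rose and 16.2% fell at least 2-fold, against 8.71% and 7.65% of the array. At 4-fold or more 24 rose and 16 fell, where 2.51% of the array rose and 2.10% fell that much, and at 8-fold or more 7 rose and 5 fell, where 0.918% and 0.735% of the array did. Among the 7, AF211597 and AF368377 entered the test through the aluminium arrays alone. Among the 5, DQ460171 entered through the control arrays alone. Their sizes are limited by the background, so these counts are not read as an excess. In 143 probes all 3 aluminium values lay above all 3 control values and in 153 below them, together 70.3%, against 54.6% of the array. When only probes above background on all 6 arrays were tested, 238 of 392 were called, with 44.7% called over the array. With the spike-in spots in place of the 75th percentile as the scale, 61 calls were left, 27 higher and 34 lower, against 7.49% of the array. The same scaling with a block for the replicate number, and so for the slide, gave 205 calls, 76 higher and 129 lower, against 32.3% of the array.

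The AF, AY and DQ probes were brighter than the rest, with a median level of -0.11 (log2, relative to the 75th percentile) against -1.02 over all tested probes. Brightness also depends on the probe. When all tested probes were split by mean level into 4 equal bins, a larger share of the AF, AY and DQ probes than of all probes was called in each bin. In the dimmest bin 40 of 78 (51.3%) were called, against 33.2% of all probes there. In the second bin 47 of 80 (58.8%) were called against 45.0%, in the third 85 of 135 (63.0%) against 46.2%, and in the brightest 80 of 128 (62.5%) against 45.7%. For changes of at least 2-fold the shares were 34.6%, 32.5%, 27.4% and 25.0% from the dimmest to the brightest bin, against 20.0%, 19.2%, 14.6% and 11.7% of all probes.

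The 3 prefixes had similar shares of called probes, and no test was made between them. Among AF probes 109 of 186 (58.6%) were called, 51 higher and 58 lower. Among AY probes 86 of 141 (61.0%) were called, 40 higher and 46 lower. Among DQ probes 57 of 94 (60.6%) were called, 31 higher and 26 lower. The share changed at least 2-fold was 24.2% for AF (17 higher, 28 lower), 31.2% for AY (22 higher, 22 lower) and 35.1% for DQ (15 higher, 18 lower). The median size of the log2 difference, signs dropped, was 0.51 for AF, 0.65 for AY and 0.72 for DQ, against 0.41 over all tested probes. DQ probes were also the dimmest of the 3, with a median level of -0.67 against -0.13 for AY and 0.11 for AF, and the part of brightness in their larger differences was not tested.

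On balance no prefix moved far in one direction. The median log2 difference, aluminium minus control, was -0.011 over the 421 probes, with slide values of -0.029, -0.047 and 0.020 for slides 1, 2 and 3. It was -0.073 for AF, 0.062 for AY and 0.17 for DQ, against 0.069 over all tested probes. Spike-in scaling moved the median of all tested probes to -0.083, and the prefixes to -0.22 for AF, -0.090 for AY and 0.019 for DQ. Quantile normalization gave -0.13, -0.052 and 0.12, so the sign for AY depended on the scaling, while AF stayed below and DQ above 0 under these settings. By array medians the split of AF calls was 27 higher to 54 lower, and with spike-in scaling and the block 22 to 59, against 51 to 58 by the 75th percentile. Each scaling lowered the log2 difference of every tested probe of the array by an amount of its own. The median over the records AF049351 to AF049355, for example, was -2.69 by the 75th percentile. It was -2.71 by array medians and -2.85 by the spike-ins. The cause of the changed splits was not tested. The splits over the array were not set beside these, so the lean is not read as particular to AF.

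**Figure D1:**
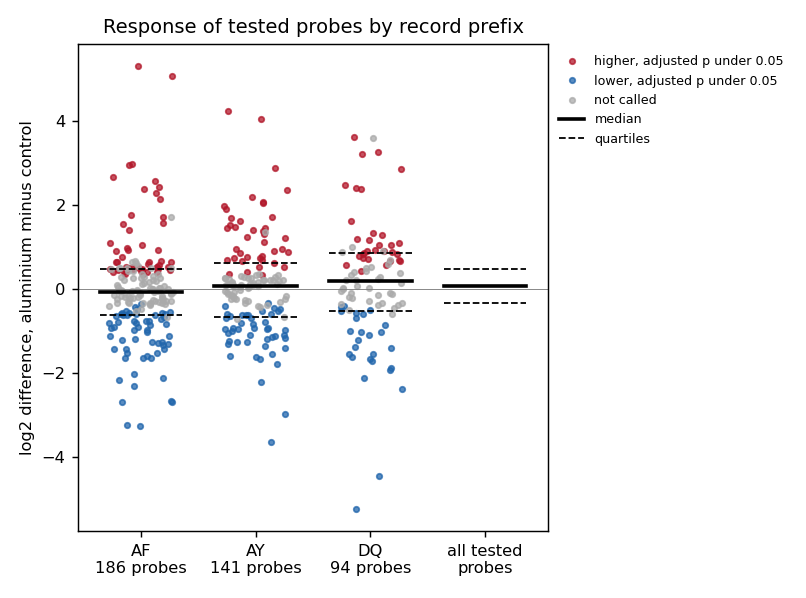
Log2 difference (aluminium minus control, vertical axis) of each tested probe by record prefix, with the median as a thick line and the quartiles as dashed lines. For all tested probes only these lines are drawn; the points reach from -5.25 to 5.29, and the lines of the 3 prefixes lie wider apart than those of all tested probes.

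The transcript that rose most among those above background on all 6 arrays was that of record AY881010, and both of its probes showed it. Probe A_95_P291388 had levels of 1.59, 1.32 and 1.55 in aluminium cells, against -2.70, -2.86 and -2.69 in control cells. Its log2 difference was 4.24 ± 0.12 (SE, n = 3 arrays a group), which is 18.9-fold (limma adjusted p = 2.56e-05). The second probe, A_95_P115487, had -0.75, -1.23 and -0.86 with aluminium and -4.68, -5.08 and -5.17 in control cells, a difference of 4.03 ± 0.19 (adjusted p = 5.27e-05), which was 3.06 after normexp background correction. In both probes every aluminium array lay more than 3 log2 units above every control array.

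Record DQ350322 was next. Its probe had 2.97, 3.21 and 3.27 in aluminium cells and -0.66, -0.41 and -0.34 in control cells, which is 12.3-fold (adjusted p = 4.09e-05). Record DQ350358 was measured by 2 probes that gave nearly the same change. A_95_P216762 had 2.01, 1.86 and 2.03 with aluminium against -1.33, -1.30 and -1.23 in control cells, and A_95_P156942 had -0.09, 0.48 and -0.20 against -3.22, -2.81 and -3.39. The log2 differences were 3.25 ± 0.10 and 3.21 ± 0.23 (SE), or 9.53-fold and 9.22-fold. The records AF211717, AY045572 and AF154639 completed the 8 highest probes and rose 7.72-fold, 7.37-fold and 6.32-fold in that order. AF211717 had 2.60, 2.58 and 3.09 in aluminium cells against -0.18, -0.24 and -0.15 in control cells. In none of these 8 probes did the groups overlap.

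On the falling side, probe A_95_P156022 of record DQ350347 changed most. It had -2.59, -3.08 and -2.67 in aluminium cells and 2.56, 2.31 and 2.56 in control cells, a log2 difference of -5.25 ± 0.16 (SE, n = 3 a group; limma adjusted p = 2.67e-05). The control arrays thus stood well above the 75th percentile and the aluminium arrays well below it. Record AY101610 had -4.36, -4.23 and -4.27 with aluminium against -0.86, -0.64 and -0.44 in control cells, a difference of -3.64 ± 0.13 (adjusted p = 3.84e-05), or -2.86 after normexp correction. Record AY547440 had -4.06, -4.27 and -4.44 against -0.88, -1.20 and -1.73, a difference of -2.98 ± 0.23, or -2.38 after normexp correction, with its control arrays more spread than its aluminium arrays. Record AF362949 had -0.73, -0.96 and -0.69 with aluminium and 1.95, 1.91 and 1.87 in control cells, a difference of -2.70 ± 0.11. The other 4 of the 8 lowest probes belonged to the neighbouring records AF049353, AF049354 and AF049355, described below with their run.

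**Figure D2:**
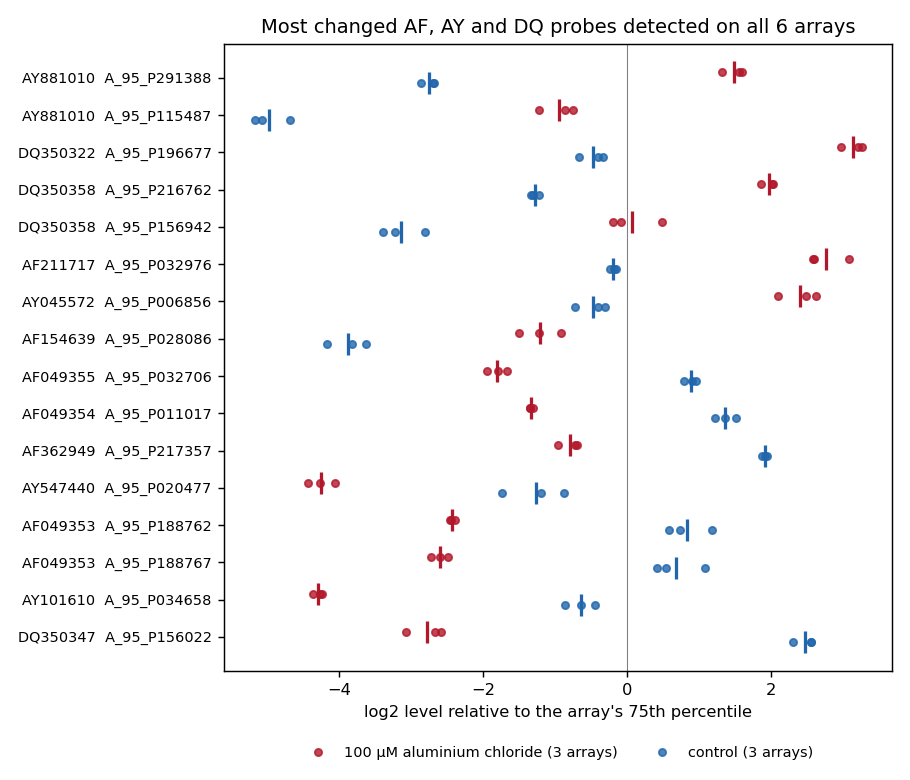
Log2 level relative to the array's 75th percentile (horizontal axis) of the 8 highest and the 8 lowest probes by log2 difference among those above background on all 6 arrays. Each point is 1 array, red for aluminium and blue for control, and the vertical ticks are group means; in all 16 probes the groups lie apart.

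The 2 AF probes with the largest rises of all were dim in control cells, so their size is uncertain. The probe of AF211597 had -3.96, -4.03 and -3.29 in aluminium cells and -9.09, -9.51 and -8.55 in control cells, where it was well above background on no array. Taken against the dimmest signal still marked as above background on each control array, it was at least 8.65-fold higher with aluminium on the scale of the processed signal (limma adjusted p = 9.07e-05). The probe entered the test through the aluminium arrays alone, where it was high, so its call supports nothing further. After normexp correction its log2 difference was 1.99, which is less than this bound, so the bound holds for the processed signal only. The probe of AF368377 had -1.66, -1.48 and -1.34 with aluminium against -6.81, -6.06 and -6.82 in control cells, 1 of whose 3 arrays was above background. Its log2 difference was 5.07 ± 0.23 (SE) and was 3.12 after normexp background correction.

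Besides AF211597, 4 records were detected throughout the aluminium group and never in control cells. They are 5 of the 421 tested probes, where 0.617% of the array was detected that way. On the processed signal they were at least 3.30-fold higher with aluminium for AY965682, 2.53-fold for AY061820, 2.47-fold for DQ460111 and 1.37-fold for AY183722. These probes entered the test through the aluminium arrays alone, where they were high, so their calls (limma adjusted p between 0.000309 and 0.00263) support nothing further. With normexp correction all 4 lost the call, and their log2 differences of 0.42 to 0.75 were smaller than these bounds. The reverse pattern was found once, against 0.232% of the array. The probe of DQ460171 averaged -7.62 ± 0.18 in aluminium cells, on none of whose arrays it was well above background, against -3.15 ± 0.15 in control cells (SD, n = 3 each). It was at least 15.1-fold lower with aluminium on the processed signal (limma adjusted p = 2.66e-05), while the log2 difference after normexp correction was -2.03, smaller than this bound. This probe entered the test through the control arrays alone, where it was high, so its call supports nothing further either.

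Several records carried more than 1 probe, which gave a second reading for the same record. Whether the probes of a record take up the same transcript was not tested. At least 2 tested probes were available for 88 records, and their first and second probe, in order of probe name, were compared. In 46 of the 88 both were called, and in 45 of these 46 both changed in the same direction. Over the array both were called in 893 of 2313 such records, 882 of them in the same direction. One probe was called in 15 records and neither in 27. The median gap between the log2 differences of the 2 probes was 0.086, against 0.085 over the array. Across records the log2 differences of the 2 probes correlated with Pearson's r of 0.81, and with 0.95 over the 87 records left without DQ350347, against 0.92 over the array. This is a description over records measured on the same 6 arrays.

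Records with many probes behaved alike across them. The 5 probes of AF014053 had log2 differences between -0.62 and -0.34, and 4 of them were called lower. The 4 probes of AF223573 lay between -0.36 and -0.31, of which 1 was called lower. The 5 probes of DQ839130 lay between -0.40 and -0.16, and 1 was called lower. In the record pairs with small differences the 2 probes thus often fell on different sides of the threshold at nearly equal values.

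In 5 of the 88 records the 2 probes responded unequally, by a limma test of the difference between the probes with Benjamini-Hochberg adjustment over all 2313 records of the array with at least 2 tested probes, where 3.72% did so. With the replicate block 15 of the 88 did so, against 15.5% of the array. The widest gap was that of DQ350347. Its probe A_95_P156022 fell as given above, while A_95_P251382 had -4.89, -4.80 and -4.93 in aluminium cells against -5.84, -5.89 and -5.38 in control cells and rose by 0.83 ± 0.16 (SE; adjusted p = 0.0073). The 2 probes differed in response by -6.09 ± 0.20 (SE; adjusted p = 0.000248), and this gap was called under all 10 alternatives tried. The rise of A_95_P251382 itself was not called after normexp correction (0.42), quantile normalization (0.77) or spike-in scaling (0.68). It was the only one of the records with opposite calls on its probes.

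In DQ460051, probe A_95_P242307 had -3.68, -3.88 and -3.90 in aluminium cells and -6.17, -6.21 and -6.22 in control cells, where 2 of 3 arrays were above background, a rise of 2.38 ± 0.10. The other probe, A_95_P115132, had -4.17, -4.09 and -3.31 against -4.38, -4.00 and -4.16, with overlapping groups and no call (0.32 ± 0.25). In AF211537 both probes rose, A_95_P196702 by 2.97 and A_95_P031151 by 2.27. A_95_P196702 was above background on 2 of 3 control arrays and so entered the test through the aluminium arrays alone. Its log2 difference was 1.44 after normexp correction. In AF153278 both probes fell, A_95_P016971 by 1.29 and A_95_P182452 by 0.59. The third probe of AF153278, A_95_P237979, had a log2 difference of -1.28, close to the first. In AF127243 one probe, A_95_P007981, fell by 0.85, while A_95_P005016 differed by -0.11 and was not called. The third probe of AF127243, A_95_P234194, had -0.82. After normexp correction the gap of AF211537 turned round, to 0.29 against -0.70 for A_95_P031151 minus A_95_P196702. The same correction left DQ460051 a gap of -1.06 against -2.06 and AF153278 one of -0.55 against -0.70, and neither was called (limma adjusted p = 0.0536 and 0.0505). When single arrays were left out, the gap of AF127243 was no longer called whichever of the 6 arrays it was, that of DQ460051 unless it was aluminium replicate 3, and that of AF211537 unless it was aluminium replicate 2 or 3. AF153278 lost its call without control replicate 1, control replicate 3 or aluminium replicate 1.

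**Figure D3:**
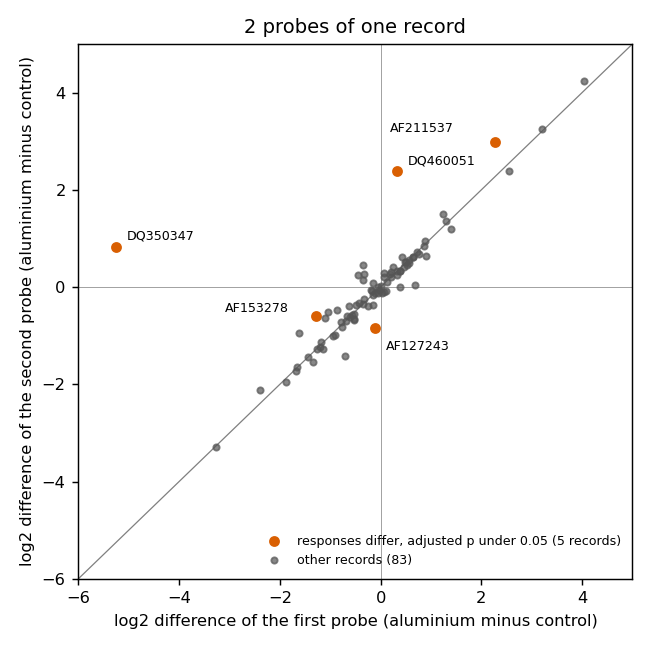
Log2 difference (aluminium minus control) of the first probe of a record on the horizontal axis and of its second probe on the vertical axis, for 88 records, with the line of equal response. Most points lie along the line, and the 5 records with unequal responses are labelled, DQ350347 farthest from it.

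Records with neighbouring numbers were gathered into runs of at least 4 records in which successive numbers differ by at most 3. There were 12 such runs, and they gave very different pictures. Their records were grouped by number alone, but the runs were added after values were seen. For comparison with the counts below, 22.4% of all tested probes of the array were called higher and 20.2% lower. In the run from AF049351 to AF049355 all 6 probes of the 5 records fell. AF049353 fell most, with log2 differences of -3.26 in A_95_P188762 and -3.28 in A_95_P188767. The first of these had -2.44, -2.39 and -2.46 in aluminium cells against 0.58, 0.73 and 1.18 in control cells. AF049354 had -1.35, -1.31 and -1.35 with aluminium and 1.23, 1.36 and 1.51 in control cells, and AF049355 had -1.79, -1.67 and -1.94 against 0.96, 0.79 and 0.91. The remaining 2 were brighter and changed less. AF049351 had 1.66, 1.84 and 1.92 with aluminium against 3.16, 3.21 and 3.34 in control cells (a log2 difference of -1.43 ± 0.11), and AF049352 had 1.44, 1.35 and 1.55 against 3.13, 2.80 and 2.98 (-1.53 ± 0.12). The limma adjusted p of the 6 probes was between 4.24e-05 and 0.000256. All 6 were called lower under each alternative except spike-in scaling without the block, which called 5.

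The run from AF362947 to AF362951 also held falling probes only among those tested. AF362947 fell by 2.03 and AF362949 by 2.70 on the log2 scale. AF362948 fell by 1.14, from a probe near the background whose difference was -0.36 after normexp correction. The other 2 probes of the run were not bright enough to be tested. In the run from AF154651 to AF154662, 6 of 8 tested probes fell, all by less than 2-fold, with log2 differences of -0.87 to -0.53, and AF154660 rose by 0.51. The higher call was lost after quantile normalization, median or spike-in scaling, without the filter, and without control replicate 1 or 2 or aluminium replicate 2 or 3. Spike-in scaling without the block left 0 calls in this run, and 7 lower with it.

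Other runs leaned upwards. In the run from AY619948 to AY619953, 5 of 7 tested probes rose and none fell, with a median log2 difference of 0.88. The 2 probes of AY619950 rose by 1.30 and 1.36, and those of AY619953 by 0.88 and 0.95, while AY619951 had 0.08 and 0.29 and was not called. Probe A_95_P006281 of AY619950 had 4.21, 4.03 and 4.25 in aluminium cells against 2.81, 2.74 and 2.85 in control cells. In the run from AY220478 to AY220485, 4 of 9 tested probes rose and 5 were not called. AY220480 rose by 1.47 ± 0.12 (SE), with 4.71, 4.53 and 4.73 in aluminium cells against 3.32, 3.05 and 3.22 in control cells. With spike-in scaling and no block 0 probes of these 2 runs were called, and with the block 4 were called higher in each. The higher calls of the run from AY220478 numbered 2 with normexp correction, without the filter, among the 7 probes above background on all 6 arrays, without control replicate 1 or 3, without aluminium replicate 2 or 3, or without both arrays of replicate 3. Both probes of AY220485, which rose, were above background on 2 of 3 control arrays. In the run from DQ460197 to DQ460202, 3 of 4 probes rose, by 0.66 to 1.18, and 0 were called without control replicate 1 or with spike-in scaling. The count was 1 with median scaling, without the filter, with spike-in scaling and the block, without both arrays of replicate 3, and without control replicate 2, aluminium replicate 2 or aluminium replicate 3.

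Other runs were mixed. Among the 7 tested probes of the run from AF154639 to AF154646, AF154639 was the one called without the block, with -1.50, -0.92 and -1.23 in aluminium cells against -3.83, -3.62 and -4.17 in control cells. The other 6 had log2 differences between -0.35 and 0.50, and with the replicate block 3 of the 7 were called higher and 2 lower. In the long run from DQ350346 to DQ350363, with 13 records, 5 of 13 tested probes rose and 5 fell (2 and 2 with spike-in scaling). Among AF, AY and DQ probes above background on every array, it held the largest fall (A_95_P156022 of DQ350347). It also held one of the largest rises among them (DQ350358). The 5 tested probes of the run from AY553214 to AY553220 lay between -0.48 and 0.15. Without the block 1 was called, lower, and with it 3, while quantile normalization, median or spike-in scaling and normexp correction left 0. The run from AF124369 to AF124372 had 1 probe higher and 1 lower of 4 tested (1 and 3 with the block), that from AF057372 to AF057378 had neither of its 2 tested probes called, and that from DQ350332 to DQ350340 had 1 of 2 called, lower.

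**Figure D4:**
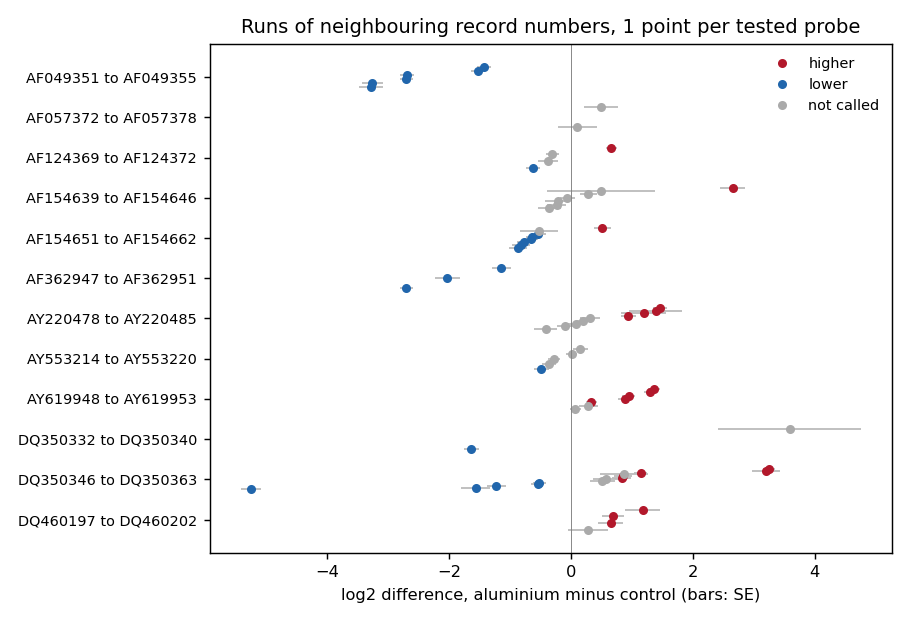
Log2 difference (aluminium minus control, horizontal axis) with its SE for each tested probe in the 12 runs of neighbouring record numbers, red for called higher, blue for called lower and grey for not called. The run from AF049351 lies wholly on the lower side, while the run from DQ350346 spans from -5.25 to 3.25.

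Wider blocks, of records sharing the first 3 digits of their number, were described where at least 10 probes were tested, which gave 5 blocks. The AF211 block had 15 tested probes, of which 9 rose and 3 fell, with a median log2 difference of 0.97. Among its 11 probes above background on all 6 arrays, 6 rose and 3 fell, with a median of 0.90. The probe of AF211597 and A_95_P196702 of AF211537 entered the test through the aluminium arrays alone, so their calls support nothing further. Besides AF211597, AF211717 and AF211537, its risers included AF211536, with 0.96, 1.59 and 1.38 in aluminium cells against -0.12, -0.31 and -0.36 in control cells, and AF211726, which rose by 1.39. Both probes of AF211532 fell, by 0.91 and 0.98. In the DQ460 block 13 of 31 tested probes rose and 4 fell, 2 of the latter being the probes of DQ460179, which fell by 2.39 and 2.13. Its count of higher calls was 8 without control replicate 1 and 6 without both arrays of replicate 3. Spike-in scaling gave 3 higher and 3 lower there, and 9 and 5 with the block. In the DQ350 block 6 of 19 rose and 9 fell, 4 and 7 of them at least 2-fold, and with spike-in scaling 4 rose and 5 fell. The AF154 block had 2 higher and 6 lower of 15, and the AY220 block 4 higher and 2 lower of 12. With spike-in scaling and no block, the AF211 block had 4 higher and 0 lower, and with it 9 and 3.

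Each slide gave its own difference between an aluminium and a control array, and no 2 slides share an array. Of the 421 tested probes 371 (88.1%) changed in the same direction on all 3 slides, against 81.2% over the array, and all 252 called probes did so. The calls were made from these same arrays, so the last count is no separate support. Across the 421 probes the slide differences correlated by 0.97 (slides 1 and 2), 0.95 (1 and 3) and 0.97 (2 and 3, Pearson), as a description over probes of the same arrays. For called probes the 3 slide differences spanned a median of 0.23 log2 units. A span of more than 1 unit was found in 9 of the 252, the widest being DQ460155 with 3.89, 1.28 and 2.23 on slides 1, 2 and 3.

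**Figure D5:**
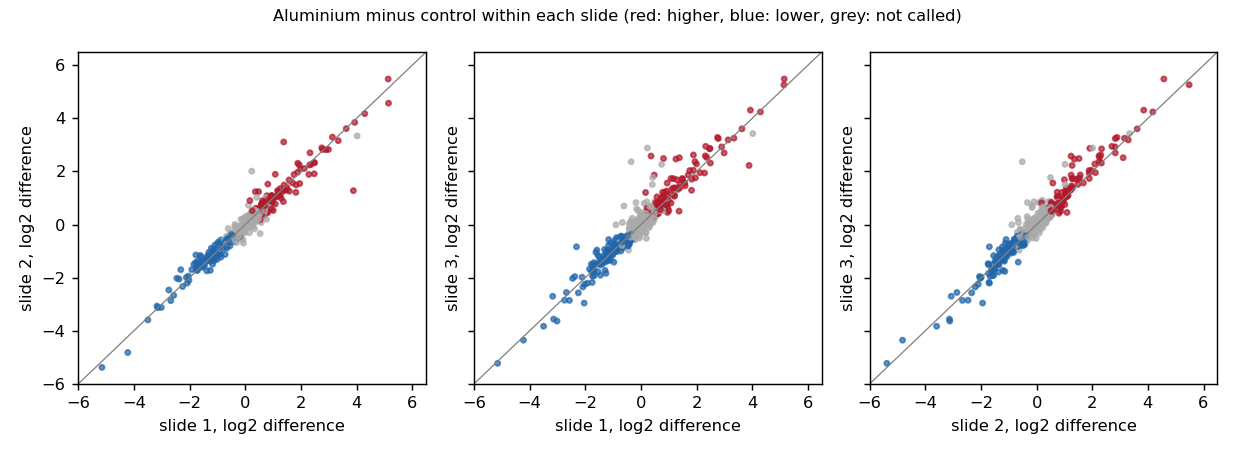
Log2 difference (aluminium minus control) within one slide against another for the 421 tested probes, with the line of equal response. Red points were called higher, blue lower and grey not called; the points lie along the line in all 3 panels.

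In record DQ350332, picked after its values were seen, the levels moved with the slide. Its probe had -4.77, -2.16 and -5.28 in aluminium cells and -8.79, -5.50 and -8.70 in control cells, so both arrays of replicate 2 were higher than the others of their group. The difference was 4.02, 3.34 and 3.43 on the 3 slides, with a mean of 3.59 ± 1.17 (SE), and was called with the replicate block but not without it. The probe entered the test through the aluminium arrays, with 1 control array above background, so the call supports nothing further. After normexp correction its log2 difference was 1.61. Over all tested AF, AY and DQ probes the block raised the calls to 332, 164 higher and 168 lower, which include all 252 calls made without it, against 65.0% of the array.

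Not every AF, AY or DQ transcript was called. Of the 169 tested probes that were not called, 136 had a 95% interval of the log2 difference that stayed within 1 unit of 0, so a 2-fold change lay outside it, and 33 had a wider one. These counts and intervals are from the fit without the block. With the replicate block 332 of the 421 probes were called, so part of the 169 were called there. The 4 with the narrowest bounds around 0 were AY553216, AF213399, DQ127171 and AF349948, and these were not called with the block either (limma adjusted p between 0.806 and 0.921). AF213399 had 3.21, 3.03 and 3.14 in aluminium cells against 3.16, 3.07 and 3.11 in control cells, with an interval from -0.22 to 0.24. AY553216 had 0.94, 0.89 and 0.95 against 0.96, 0.83 and 0.93, with an interval from -0.20 to 0.24. In both the groups overlapped.

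Small changes were also measured closely. The 4 called probes with the smallest standard errors changed by less than 2-fold. The probe of AF120092 had 0.02, 0.03 and 0.02 in aluminium cells against 0.67, 0.59 and 0.61 in control cells, a fall of 0.60 ± 0.08 (SE, limma adjusted p = 0.00229). AY074787 fell by 0.95 and AF014053 by 0.62 in A_95_P184912, while AF253511 rose by 0.93, with 2.86, 2.78 and 2.85 against 1.89, 1.88 and 1.95. All 4 lost their call with spike-in scaling and no block, and all 4 had it with the block as well.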

How the data were processed

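Per the file headers, the authors ran Agilent Feature Extraction 11.5.1.1 on single-colour Cy3 arrays. The deposited intensity is its processed signal, background-subtracted and detrended within the array and not scaled between arrays. Deposited spot and background medians served an alternative, as did the deposited log2 value table, whose columns matched these levels centred on each probe's median within 0.00122 (median gap per array). Background and outlier flags are the extraction's. Outlier and control spots were left out, repeated spots were averaged as log2 signals, and levels were set relative to the array's 75th percentile.

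All 28861 tested probes were compared, aluminium minus control over 6 arrays with no block, in limma 3.58.1 (lmFit, eBayes; R 4.3.3). Folds are antilogs of log2 differences. The fit was tested on simulated data. Deviations from group means correlated by 0.615, 0.798 and 0.711 between arrays of the same replicate number, which share a slide per the file headers, and arrays were therefore treated as paired in the blocked fit. Probes named: the 8 highest and 8 lowest called on all 6 arrays, the 2 highest and lowest per prefix, those detected in 1 group, records with unequal probes, the smallest standard errors and the smallest changes. Runs, blocks, records with 4 or more probes and DQ350332 were added after values were seen. The members, lists and tests were chosen with earlier results of these data known. The gene lists planned on descriptions were not used, as no description was given.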

Additional observations from a re-analysis of the deposited data

How the results depend on the processing

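The count of 252 called probes was 202 to 260 under normexp correction, quantile normalization, no filter, the filter on all 6 arrays, array median scaling, the authors' value table, kept outlier spots and a trended robust variance, and 205 to 226 without 1 array. It was 332 with the replicate block, 199 without replicate 3 and 319 without replicate 3 with the block. Scaling by the spike-ins gave 61 calls, all at least 2-fold (AF 25, AY 17, DQ 19), 60 of them among the 252, and 205 with the block. This block and leaving out replicate 3 with it were chosen after seeing the data. The share called over the array is given above for the replicate block (65.0%), the spike-in scalings and the filter on all 6 arrays. For the other settings it was not set beside these counts, so they are not read as an excess over the array. The median log2 difference, -0.011, was 0.027 with normexp correction, -0.075 after quantile normalization, -0.16 with spike-in scaling with or without the block, -0.059 for probes above background on all 6 arrays, and -0.061 to 0.026 without 1 array, so its sign was not settled. Records with unequal probes numbered 15 with the replicate block and 1 to 5 without 1 array: 1 without control replicate 1, control replicate 3 or aluminium replicate 1, 2 without control replicate 2 and 3 without aluminium replicate 2. No called probe changed sign under any alternative. Adding the block, the trended robust variance or another filter leaves the log2 difference as it was, so its sign could not change there. For the 40 probes chosen by the naming rule, 731 of 751 alternative values kept their side of the threshold and 20 lost the call, 8 of them with spike-in scaling and 5 with normexp correction. A_95_P182452 of AF153278 lost it without control replicate 1 or 2 or aluminium replicate 1 or 3. The causes were not tested. Folds of probes that were dim in one group are limited by the background.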
